A study of Mus musculus with 15 samples.

Results

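The genes described here are 51 genes of DNA replication and S phase, chosen by name because CIZ1 is itself a replication factor, and taken from the deposited table wherever one of their symbols named a transcription unit. A unit was found for 49 of the 51 genes, out of 65522 units in all. Cdt1 and Gins2 were not analysed here. Levels are FPKM, fragments per kilobase of transcript per unit number of mapped fragments, which are scaled for length and so can be set side by side between genes.

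All cells were female mouse embryonic fibroblasts of the C57BL/6 background, each population or line from 1 embryo, grown to 80% confluence and measured by poly(A) RNA-seq. Primary populations, taken before passage 5, were WT (CIZ1 +/+, from embryos E14.4, E13.1 and E13.8) or CIZ1 null (CIZ1 -/-, from E14.2, E13.15 and E13.17), and a culture-adapted line had been derived from each of these 6 embryos. The null allele is a gene trap inserted downstream of exon 1 of Ciz1, a gene that encodes a nuclear matrix protein which promotes initiation of DNA replication. E13.17 cells, the primary population and the adapted line alike, also carried a doxycycline-inducible GFP-CIZ1 transgene per the study's list of cells, although the sample label of the adapted line names CIZ1 -/- only. Neither sample had been given doxycycline. A further untreated primary population with the transgene (sample 13) and 2 samples of such cells given doxycycline at 5 to 10 µg/ml (samples 14 and 15) completed the 15 samples. The study names E13.17 and E14.19 as the embryos of its induced cells, but which of samples 13 to 15 came from which embryo is not given in the labels, so treated and untreated samples were not paired. The questions were how levels changed on culture adaptation, on loss of CIZ1, and on induction of GFP-CIZ1.

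DNA is replicated once per cell cycle. In G1 the origin recognition complex (ORC) and Cdc6 load the MCM helicase onto origins, a step called licensing, which geminin (Gmnn) later blocks. At S-phase entry the kinases Cdc7-Dbf4 and cyclin E or cyclin A with Cdk2 recruit Cdc45 and GINS to the helicase, and primase, polymerases, the sliding clamp PCNA and its loader RFC then copy the DNA while RPA covers the single strands. Many of these genes are transcribed from late G1 under E2F factors, so that their transcripts are low in cells that have left the cycle. In bulk RNA a smaller share of cycling cells and less transcript in each cell cannot be told apart.

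Ciz1 was listed at 18.7 to 24.96 FPKM in the 6 WT samples and at no more than 0.72 in the 7 CIZ1 null samples without doxycycline, against 296 and 191 in samples 14 and 15, so the targeted gene went with its label in each sample. The fibroblast markers Col1a1, Col1a2, Pdgfrb and Vim were present in all 15 samples, whereas Thy1 was listed at 0 in adapted WT E13.8 and at 0.22 in adapted null E13.17. The summed level of 7 fibroblast markers was 8129 to 8814 FPKM in the 6 primary populations and 1790 to 4734 in the 6 adapted lines, and the part of this in the results on adaptation was not tested. Marker lists of epithelial, endothelial, haematopoietic, neural and muscle cells summed to at most 19.8 FPKM in any sample, and Myod1 and Elavl3 were listed at 0 in all. Depth, recovered from the steps between low values, ranged from 0.48 to 1.62 times that of primary WT E14.4 and was lowest in sample 13 and in adapted null E14.2 (0.54). Correlation of log2 levels between samples of a group was 0.95 to 0.97 in primary WT cells and 0.83 to 0.89 in either kind of adapted line.

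Promoters of the genes were read from RefSeq (GRCm38.p6, 250 bases before to 50 after the start) for 40 of the 49; Ccna2, Ccne2, Gins1, Gins4, Gmnn, Mcm4, Pole, Prim2 and Rfc2 had no entry. The letters TTTCCCGC or TTTGGCGC, forms of the E2F site, occurred on either strand in 12 of the 40 genes (30%). They occurred in 1.8% of all 27025 genes of the table. Other forms of the site were not searched. CCAAT, the NF-Y box, occurred in 23 genes (57.5%, against 41.1%), and TTTGAA, the CHR element of late cell cycle genes, in 7 (17.5%, against 20.2%). These are matches of letters and show no binding. The sites below, with the matched letters in capitals and read along the gene's strand, are shown because their genes, which encode an MCM loader, helicase subunits, a polymerase subunit, a clamp loader subunit and an ORC subunit, differed in how far they were lower in the adapted null lines. Mcm3 and Mcm6 hold a second such site, not shown.
Cdc6, chr11:98908003-98908030, + strand: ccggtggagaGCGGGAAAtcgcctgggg
Mcm3, chr1:20820276-20820303, - strand: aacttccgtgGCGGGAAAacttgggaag
Mcm6, chr1:128359735-128359762, - strand: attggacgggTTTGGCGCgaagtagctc
Pole2, chr12:69228163-69228190, - strand: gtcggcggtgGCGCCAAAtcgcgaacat
Rfc3, chr5:151651191-151651218, - strand: tttcgcgctcGCGGGAAAactctactgt
Orc3, chr4:34614966-34614993, - strand: catgcctcccTTTCCCGCacgccccgcc

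In primary WT cells the levels spanned from 1.73 ± 0.97 FPKM (SD, n = 3) for Cdc7 to 127 ± 25.8 for Rrm2, the small subunit of ribonucleotide reductase. The 6 MCM subunits lay between 20.7 ± 2.57 (Mcm5) and 44.4 ± 5.09 (Mcm7). Mcm6 and Mcm7 were at about the same level and apart from the other MCM genes, whose neighbours in that order overlapped within their spread. The unit of Mcm7 also lists Mir25, Mir93 and Zkscan1, so its level cannot be given to Mcm7 alone. Within ORC, Orc1, the subunit whose amount varies over the cell cycle, was lowest at 3.33 ± 0.51, and the other subunits lay between 13.5 ± 0.74 (Orc3) and 22.1 ± 1.17 (Orc6). Cdc6, at 4.37 ± 1.65, was lower than geminin, which blocks licensing. Pcna, at 80.6 ± 7.27, was above every subunit of its loader, of which Rfc5 was the highest at 31.3 ± 0.82.

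**Figure D1:**
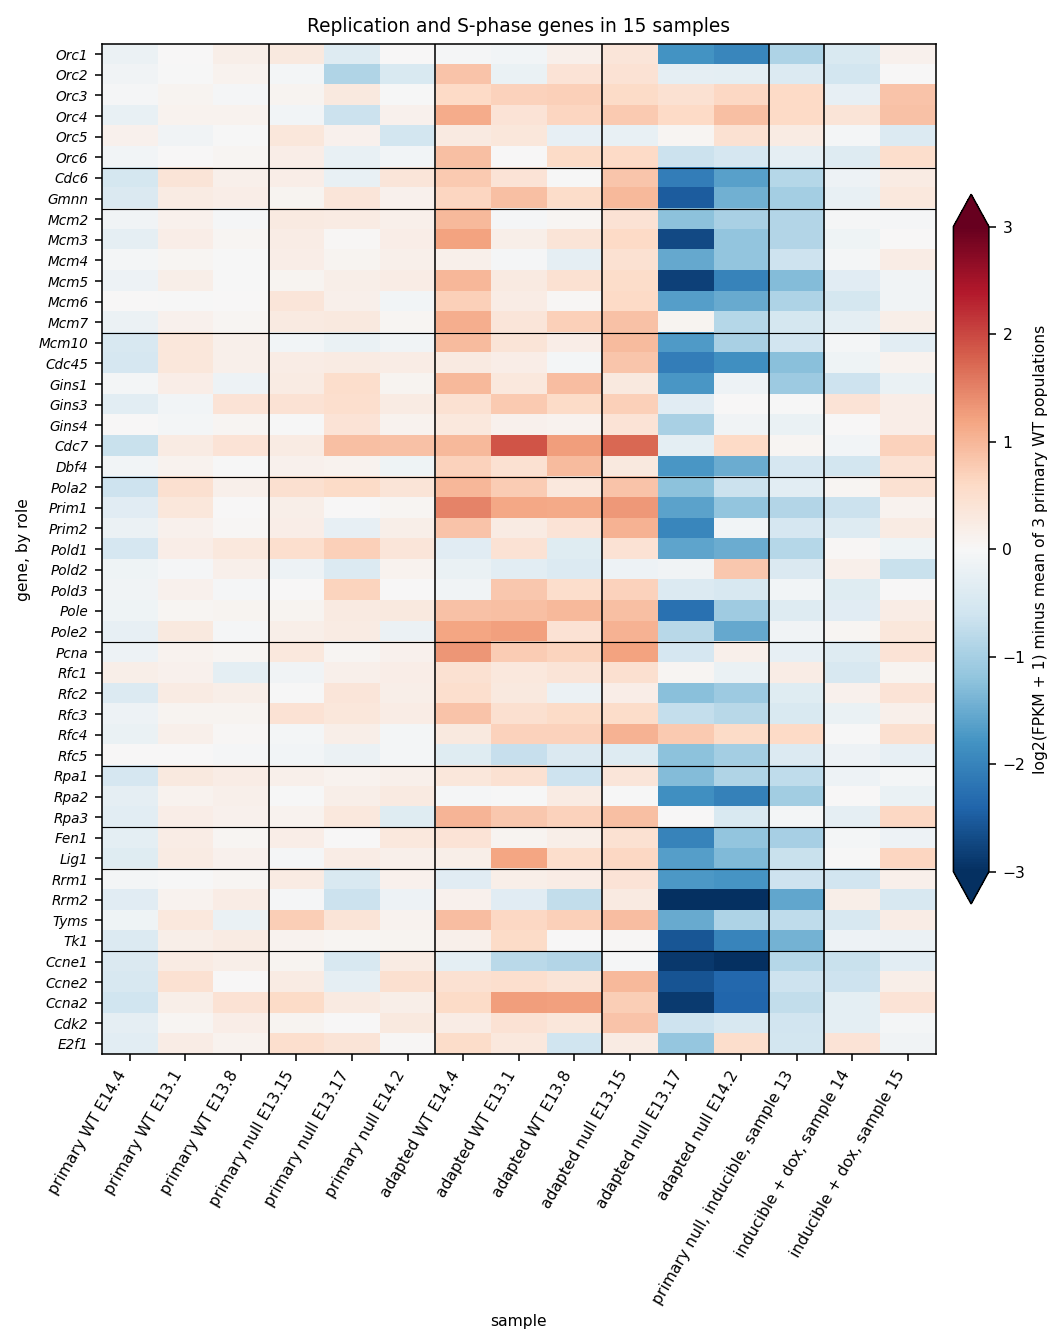
Heat map of 49 replication and S-phase genes (rows, grouped by role, from ORC at the top to cyclins, Cdk2 and E2f1 at the bottom) in 15 samples (columns). Colour is log2(FPKM + 1) minus the mean of the 3 primary WT populations. The mostly blue columns are adapted null E13.17 and E14.2, where the median gene was 1.5 and 0.97 lower, while adapted null E13.15 was 0.60 higher and the adapted WT lines 0.38 to 0.57 higher.

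Culture adaptation of WT cells was accompanied by higher levels of most replication genes. Of the 49 genes 43 were higher in the adapted lines, with a median log2 change of 0.45 on the log2(FPKM + 1) scale, against -0.05 over all 19919 units tested. Among them 4 genes passed the test (limma, adjusted p under 0.05) and all of these rose, beside 2.87% of all units called higher. None was called lower, beside 6.68% of units. In 23 genes all 3 adapted lines were above all 3 primary populations (17.3% of all units) and in 2, Rfc5 and Pold2, they were all below (21.4% of all units). Compared with its own parent population, the median gene was higher by 0.19 in E13.1, 0.32 in E13.8 and 0.87 in E14.4, the last from the primary population that had the lowest level of the 3 in 41 of 49 genes.

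Values follow in the order E13.1, E13.8, E14.4. Where a gene is first given in full, its unit's identifier stands with the bounds (GRCm38) of the locus, which other units can share. Prim1 (XLOC_005753, chr10:128015167-128030037), the catalytic subunit of primase, which lays down the RNA primers of DNA synthesis, was at 16.5, 13.1 and 9.92 FPKM in primary cells and at 30.0, 29.6 and 38.2 in the adapted lines (log2 change 1.26 ± 0.23, SE, limma adjusted p = 0.0270). Pole (XLOC_042439, chr5:110286305-110339717), the catalytic subunit of the leading strand polymerase, was at 5.97, 6.08 and 5.1 and at 11.5, 12.1 and 11.3 (0.91 ± 0.16, limma adjusted p = 0.0243). In both genes every adapted line was above every primary population and the lines lay close together. Pcna (XLOC_032622, chr2:132248510-132312050), the sliding clamp, was at 86.3, 83.1 and 72.5 and then at 138, 128 and 204 (0.92 ± 0.22, limma adjusted p = 0.0487), with the highest adapted level in E14.4. Orc3 (XLOC_039446, chr4:34550464-34660287), an ORC subunit, was at 14.3, 13.1 and 13.1 and at 22.4, 22.7 and 21.0 (0.67 ± 0.15, limma adjusted p = 0.0422). These calls were close to the threshold: none of the 4 passed when any single primary WT population was left out (lowest adjusted p of any gene 0.078 to 0.115), or when the embryo was fitted as a block (0.062).

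The other genes chosen for description in every sample did not pass. Mcm2, a helicase subunit, was at 24.8, 21.99 and 21.1 FPKM in primary WT cells and at 21.8, 23.6 and 45.6 in the adapted lines, where E14.4 alone stood above the primary range (0.33 ± 0.30). Cdc6 was at 5.81, 4.73 and 2.57 and at 5.87, 4.12 and 8.01, with overlap of the groups (0.39 ± 0.32). Ccna2, cyclin A2, which acts in S phase and G2, was at 23.1, 28.2 and 13.1 and at 50.1, 49.7 and 30.9, without overlap (1.02 ± 0.33, limma adjusted p = 0.0989). Ccne1, cyclin E1, which acts at S-phase entry, was at 38.7, 36.6 and 23.9 and at 18.1, 17.1 and 26.3, the opposite direction to cyclin A2 (-0.66 ± 0.26, limma adjusted p = 0.148). Rrm2 was at 136, 147.5 and 98.2 and at 99.2, 74.9 and 136.5 (-0.32 ± 0.27), and E2f1, the transcription factor of the S-phase programme, at 14.1, 12.9 and 9.32 and at 15.2, 7.57 and 17.8 (0.09 ± 0.33), both with overlapping groups.

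**Figure D2:**
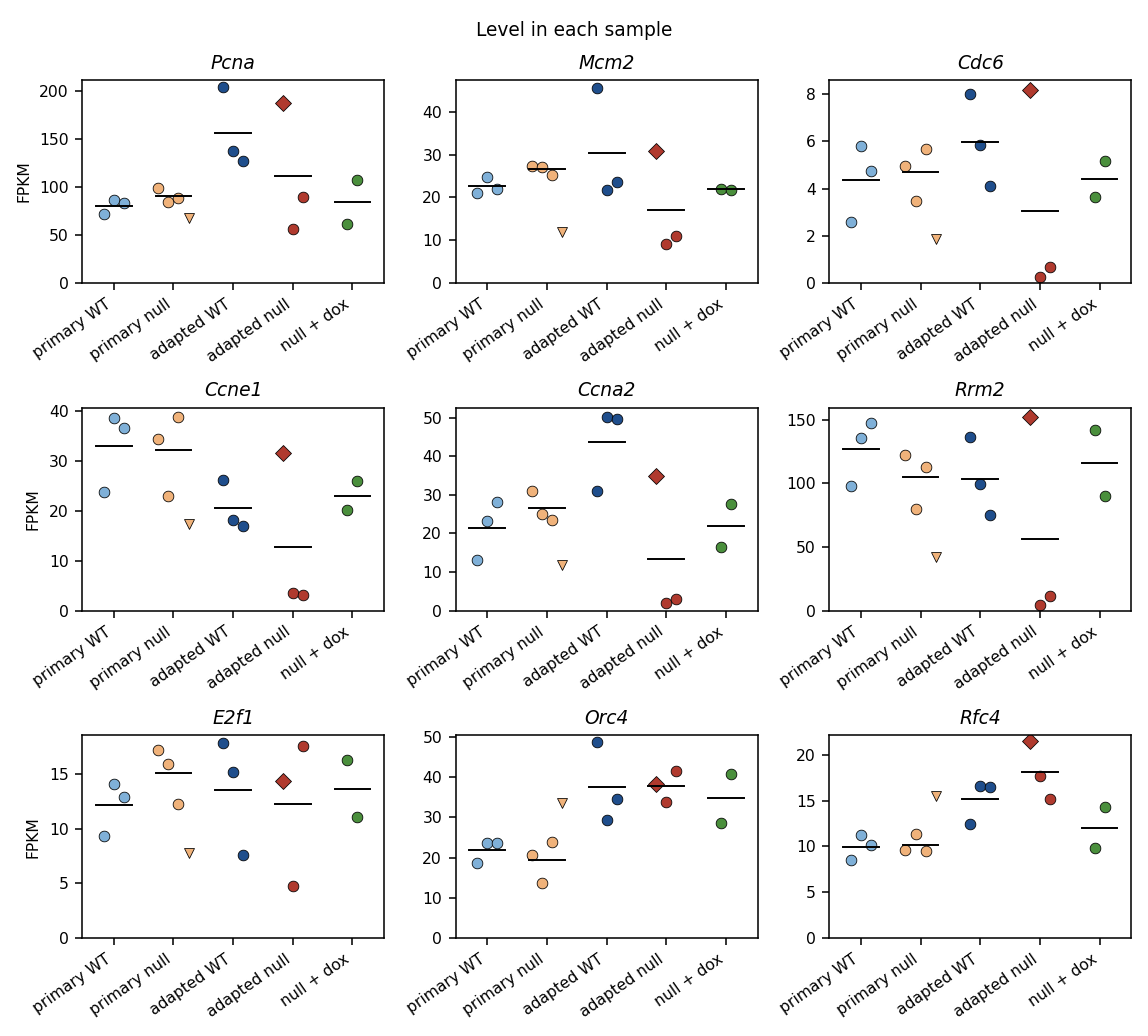
FPKM of 9 genes in each sample (vertical axes start at 0), grouped as primary WT, primary CIZ1 null, adapted WT, adapted CIZ1 null and doxycycline-treated null cells. Points are samples, bars are group means without sample 13. The diamond is adapted null E13.15 and the triangle is sample 13. In Rrm2 the diamond is at 152 FPKM and the other adapted null lines at 4.57 and 11.3, whereas in Orc4 and Rfc4 all 3 adapted null lines lie above the 3 primary null populations of the comparison.

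Adapted CIZ1 null cells did not behave as a single group. The E13.15 line had 42 of 49 genes above its own primary population, with a median log2 change of 0.38. It was the highest of the adapted null lines in 44 genes, beside 34.5% of all units. The E13.17 line had 44 of 49 genes below its parent, with a median change of -1.55, and the E14.2 line had 41 below, with a median of -1.05. Over all 20046 units the medians in these lines were -0.0018, -0.05 and -0.05. In the E13.17 line 39 genes, and in the E14.2 line 37, were below all 6 primary populations of the study, beside 36.9% and 35.6% of all units. In the E13.15 line 38 genes were above all 6, beside 29.4% of units. The spread between adapted null lines, as the median SD of log2 levels, was 1.08 for these genes and 0.36 for all units, whereas in adapted WT lines it was 0.32 and 0.36. Relative depth was 0.90 for E13.15, 0.85 for E13.17 and 0.54 for E14.2, and the part of depth in these levels was not tested.

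**Figure D3:**
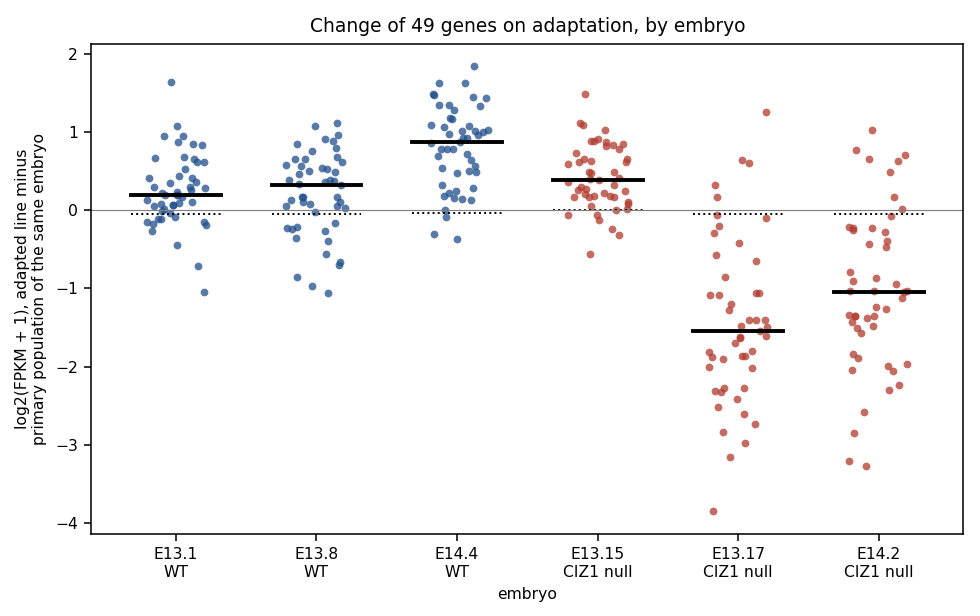
Change of each of 49 genes (points) between the adapted line and the primary population of the same embryo, as a difference of log2(FPKM + 1), for 3 WT (blue) and 3 CIZ1 null (red) embryos. Solid bars are medians of the 49 genes (0.19, 0.32, 0.87, 0.38, -1.55 and -1.05 from left to right) and dotted bars are medians of all units, which lie near 0.

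How far levels were lower differed between roles, described here from 1 line each with no test. In what follows, levels in the adapted null lines are given as a percentage of the primary population of the same embryo, in the order E13.15, E13.17, E14.2. The group of cyclins, Cdk2 and E2f1 had a median change of -2.31 in E13.17 and -2.58 in E14.2. The median was -2.25 and -1.97 for nucleotide supply, -2.35 and -1.78 for Cdc6 and geminin together, and 0.051 and 0.41 for ORC. Rrm2 stood at 125%, 5.74% and 9.99%, from 122, 79.6 and 113 FPKM in primary null cells to 152, 4.57 and 11.2 in the adapted lines. Ccna2 went from 31.1, 25.03 and 23.5 to 34.9, 1.92 and 3.11 FPKM, and Ccne1 from 34.5, 23.1 and 38.9 to 31.6, 3.52 and 3.12. In each of these genes E13.15 was within or above the range of the adapted WT lines and the other lines were at or below 15.3% of their parents. Ccne2, the other cyclin E gene, stood at 172%, 9.30% and 7.34%. Cdk2, the kinase partner of these cyclins, stood at 177%, 61.1% and 55.5%.

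Among genes of licensing Cdc6 went from 4.96, 3.48 and 5.66 to 8.2, 0.236 and 0.681 FPKM. Geminin, which blocks licensing, stood at 190%, 9.77% and 29.8%. The 6 MCM genes lay between 113% and 155% of the parent in the E13.15 line, between 8.96% and 86.7% in E13.17, and between 18.1% and 52.6% in E14.2. Mcm2 went from 27.3, 27.1 and 25.3 to 31.0, 9.1 and 11.1 FPKM. Mcm5 was the lowest of the MCM genes in both of the low lines, and the Mcm7 unit, at 46.9 FPKM in E13.17, was the highest there. The 7 genes of helicase activation, which are Cdc45, 3 GINS subunits, Mcm10, Cdc7 and Dbf4, were all lower than the parent in E13.17 (12.4% to 40.4%) and in E14.2 (16.6% to 85.0%). Dbf4 (XLOC_043329, chr5:8395570-8422746), the activating subunit of Cdc7 kinase, went from 18.4, 18.3 and 15.2 to 20.8, 4.28 and 5.37 FPKM.

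Of the 8 polymerase and primase genes 7 were lower in both of these lines. Pole stood at 5.86% of its parent in E13.17 and 30.6% in E14.2, with levels of 6.09, 7.11 and 7.2 FPKM in primary and 11.6, 0.417 and 2.21 in adapted null cells. Prim1 went from 14.8, 13.1 and 13.5 to 33.1, 3.55 and 5.16. Pold2, an accessory subunit of polymerase delta, was the exception in this role, at 101%, 126% and 164%. All 3 RPA subunits were lower in E13.17 and E14.2. Rpa2 (XLOC_038669, chr4:132768331-132779196) went from 14.02, 16.1 and 17.4 to 14, 3.24 and 2.74 FPKM, whereas Rpa3 stood at 81.3% and 94.4% in the low lines, so subunits of the RPA trimer differed. The Okazaki fragment enzymes Fen1 and Lig1 stood between 18.6% and 32.3% of the parent in these lines.

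In all, 8 genes were below the range of the 6 primary populations in neither of the low lines, and 4 of them encode ORC subunits. Orc4 (XLOC_031510, chr2:48813806-49325405) was at 20.6, 13.7 and 23.9 FPKM in primary null cells and at 38.3, 33.8 and 41.5 in the adapted lines, and Orc3 at 14.4, 16.8 and 13.3 and 20.6, 19.0 and 21.4. Rfc4 (XLOC_021987, chr16:23107311-23127831), a clamp loader subunit, was at 9.56, 11.3 and 9.48 and 21.5, 17.7 and 15.2. In these 3 genes every adapted line of either genotype was above its parent, and no other gene of the 49 had this pattern. Some primary samples outside these pairs reached similar levels. Samples 13, 14 and 15 had 20.9, 11.2 and 25.15 FPKM of Orc3 and 33.6, 28.7 and 40.75 of Orc4. Their Rfc4 was at 15.5, 9.8 and 14.3. Orc2, Orc5, Pold2, Rfc1 and Cdc7 were the rest of the 8. Cdc7 nonetheless stood at 29.0% of its parent in E13.17 and 77.4% in E14.2. It was within the primary range because primary WT E14.4 had only 0.636 FPKM. Orc1 ran against the other ORC subunits, from 4.29, 2.31 and 3.37 to 4.58, 0.243 and 0.115 FPKM, which is 10.5% of the parent in E13.17 and 3.41% in E14.2. Rfc5 (XLOC_044734, chr5:117357268-117389070), another loader subunit, was the single gene lower than the parent in all 6 lines, with 29.8, 27.8 and 29.9 FPKM in primary and 23.7, 12.8 and 15.04 in adapted null cells, after 31.8, 30.4 and 31.8 and 19.1, 22.9 and 24.3 in WT. E2f1 (XLOC_032880, chr2:154559406-154569892) parted the low lines, at 4.75 FPKM in E13.17 and 17.6 in E14.2, the latter above all 6 primary populations, and Pcna did so less, at 56.5 and 89.5.

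The E2F letters occurred among genes that were lower and genes that were not. The 12 genes with them changed by a median of -1.08 in the E13.17 line and -1.20 in E14.2. The 28 genes of the promoter table without them changed by -1.45 and -1.03. Only these letters were searched, and genes without an entry, Ccna2, Ccne2, Gmnn and Pole among them, were left out. The split therefore does not separate genes under E2F control from others. The part of E2F in these changes was not tested. Among the promoters printed above, those of Cdc6 and Mcm3 belong to genes at 6.79% and 11.7% of the parent in E13.17, while that of Orc3 belongs to a gene at 113%.

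In the test of 3 adapted against 3 primary CIZ1 null samples none of the 49 genes passed, beside 4.86% of 20044 units. At an unadjusted p under 0.05 there were 3 genes higher (12.5% of units) and 5 lower (16.8%). The smallest p-values belonged to Rfc4 (0.77 ± 0.19, limma adjusted p = 0.0666), Orc4 (0.96 ± 0.24, adjusted p = 0.0673), Rfc5 (-0.77 ± 0.25, adjusted p = 0.106) and Rpa2 (-1.44 ± 0.53, adjusted p = 0.136). Rfc4, Orc4 and Rfc5 differed from the parent in the same direction in all 3 lines, whereas Rpa2 was at 99.9% of its parent in E13.15 and was lower in the other lines, as Rrm2 was. Rrm2 had a mean change of -2.25 ± 1.15 (limma adjusted p = 0.242). The changes of Ccna2 (-1.86 ± 0.90), Ccne1 (-1.94 ± 0.80), Cdc6 (-1.07 ± 0.74) and Mcm2 (-0.81 ± 0.43) were larger in size than their standard errors. Those of E2f1 (-0.44 ± 0.45) and Pcna (0.12 ± 0.42) were smaller than theirs. Orc3, Orc4 and Rfc4 were 3 genes higher without overlap (17.5% of units) and Rfc5, Rpa2 and Tk1 were 3 lower without overlap (19.6%). Sample 13, an untreated primary null population outside this comparison, was within the range of the adapted null lines in all of these but Orc4. It had 20.9 FPKM of Orc3, 15.5 of Rfc4, 23.4 of Rfc5, 6.42 of Rpa2 and 12.8 of Tk1. Its Orc4, at 33.6, was just below the lowest adapted line. With sample 13 included, the lowest limma adjusted p of the 49 was 0.134. The number of genes called changed with the E13.15 line. Without it 30 of the 49 genes were called lower, beside 9.87% of units, with a median change of -1.32. Leaving out either other adapted line gave 0 called, with medians of -0.40 (without E13.17) and -0.63 (without E14.2). E13.15 was set apart by the levels of these same genes, so the 30 calls are not a separate test.

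**Figure D4:**
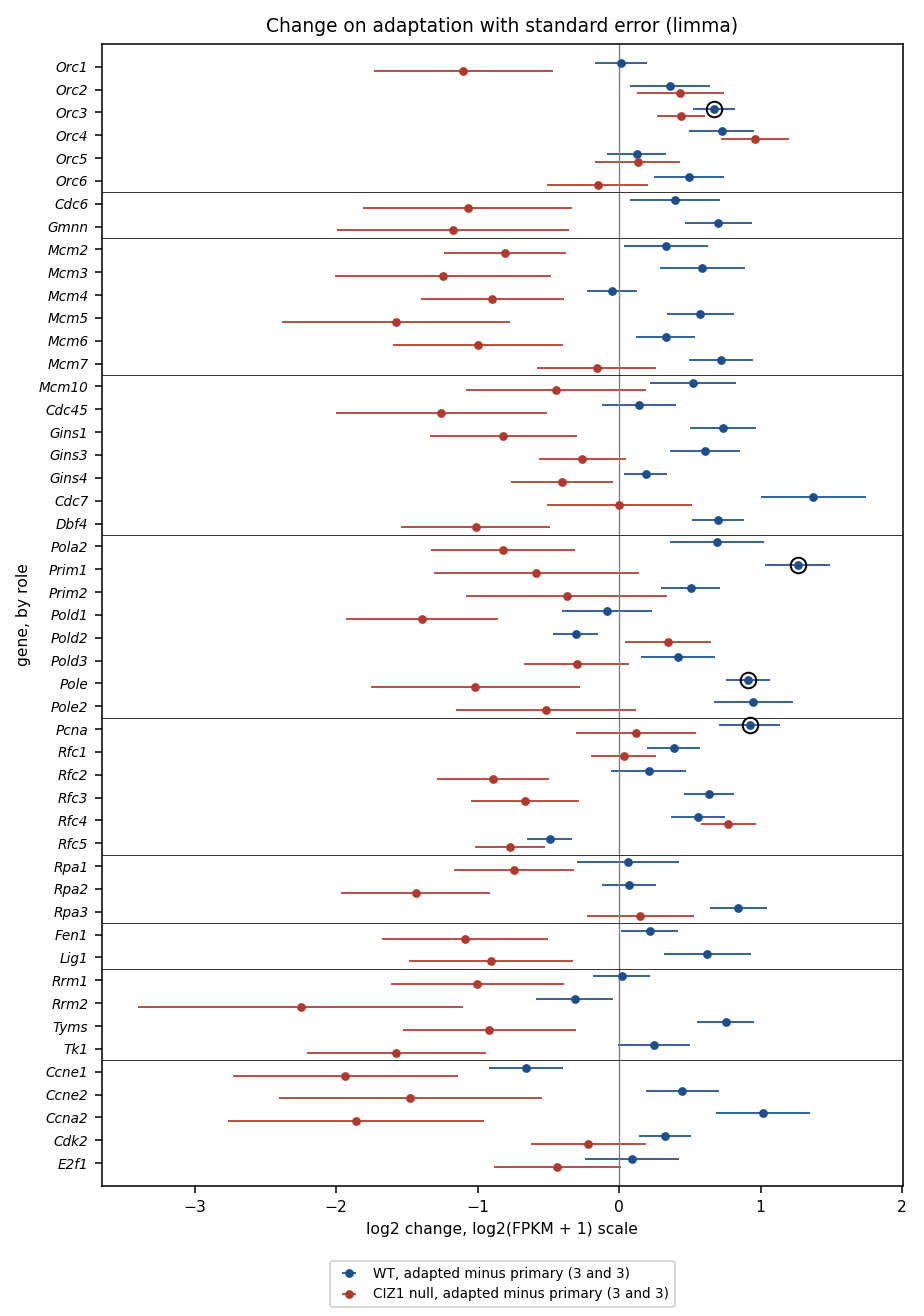
Log2 change on culture adaptation with its standard error for 49 genes, in WT cells (blue) and in CIZ1 null cells (red), each from 3 adapted and 3 primary samples. Black circles mark adjusted p under 0.05. The circled genes, all in WT, are Orc3, Pcna, Prim1 and Pole.

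Between primary cells of the 2 genotypes none of these genes passed. The median change was 0.15, with 38 of 49 genes higher in CIZ1 null cells. Over all 19566 units the median was -0.0002 and 49.96% were higher. Of these units 0.00511% were called, which is Ciz1 itself. Among the 49 genes 1 had an unadjusted p under 0.05 (6.26% of units). That gene was Rfc3 (XLOC_045349, chr5:151642755-151651242), a clamp loader subunit, at 13.9, 13.9 and 11.8 FPKM in WT and 18.1, 16.98 and 15.4 in null cells (0.33 ± 0.13, limma adjusted p = 0.776), without overlap. Pold1 (XLOC_053077, chr7:44532745-44548849), the catalytic subunit of polymerase delta, was at 12.5, 13.5 and 7.24 and 15.5, 18.1 and 14.1 (0.52 ± 0.23, adjusted p = 0.807), and Cdc7 (XLOC_042360, chr5:106964321-106984808), the kinase, at 2.09, 2.46 and 0.636 and 2.09, 3.89 and 3.75 (0.68 ± 0.33, adjusted p = 0.815). Orc2 (XLOC_002818, chr1:58430993-58505109) was at 14.6, 15.8 and 13.6 in WT and 14.1, 7.36 and 10.3 in null cells (-0.47 ± 0.22, adjusted p = 0.815), lowest in E13.17. The small shift of the median rested on primary WT E14.4: without it the median was 0.00019, and with sample 13 added to the null cells it was -0.05.

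Between adapted lines of the 2 genotypes 46 of 49 genes were lower in CIZ1 null cells, with a median of -0.97. Over all 19976 units the median was 0.034 and 53.9% were higher. None of the 49 genes passed (0.00501% of units were called). There were 6 genes, all lower, that had an unadjusted p under 0.05, beside 4.02% of units. The smallest p-values were those of Dbf4, at 23.4, 33.3 and 27.8 FPKM in WT and 20.8, 4.28 and 5.37 in null lines (-1.68 ± 0.55, limma adjusted p = 0.998), Ccna2 (-2.53 ± 0.92, adjusted p = 0.998), Tk1 (XLOC_011195, chr11:117809599-117839908), the salvage thymidine kinase, at 54.4, 36.1 and 40.0 and 36.9, 5.29 and 8.38 (-1.75 ± 0.65, adjusted p = 0.998), and Rpa2, at 14.1, 16.9 and 13.9 and 14, 3.24 and 2.74 (-1.36 ± 0.54, adjusted p = 0.998). In each of these the E13.15 line was near or within the WT values and the other lines were far below. Without E13.15, 40 genes, all lower, had an unadjusted p under 0.05, beside 4.79% of units, and the lowest adjusted p of any of the 49 was 0.0699. Leaving out E13.17 or E14.2 instead gave 0 genes at that level, with medians of -0.61 and -0.73. E13.15 was set apart by the levels of these same genes, so the fit without it is not a separate test.

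The difference between the genotypes in the change on adaptation, tested as an interaction over the 12 samples, was called for none of the 49 genes and for 0% of all units. There were 11 genes, all with a lower change in null cells, that had an unadjusted p under 0.05, beside 4.63% of 20046 units. The median over the 49 genes was -1.14, against 0.04 over all units. The smallest p-values were those of Rfc3 (-1.30 ± 0.44), Dbf4 (-1.71 ± 0.60), Ccna2 (-2.88 ± 1.05) and Gins1 (-1.55 ± 0.61), each with a limma adjusted p of 0.996. Gins1 (XLOC_030342, chr2:150905386-150931463), a GINS subunit, was at 13.2, 10.2 and 10.9 and 14.3, 22.5 and 23.3 FPKM in primary and adapted WT cells, and at 13.7, 16.9 and 12.1 and 14.2, 2.67 and 10.2 in null cells. Without E13.15 the interaction was called for 22 genes, all lower, beside 1.1% of units called lower. Leaving out E13.17 or E14.2 instead gave 0 genes called. As above, the fit without E13.15 is not a separate test.

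Induction of GFP-CIZ1 was compared in 2 untreated and 2 doxycycline-treated samples of transgenic null cells. No gene of the 49 passed, beside 0.0101% of 19768 units called, and none had an unadjusted p under 0.05 (1.76% of units). Of the 49 genes 40 were higher with doxycycline, with a median of 0.19. Over all units 48.9% were higher, with a median of -0.006. Rrm2 was at 79.6 FPKM in E13.17 and 41.8 in sample 13 untreated, and at 142 and 89.8 in samples 14 and 15 (0.96 ± 0.42, limma adjusted p = 1). Cdc6 was at 3.48 and 1.88 untreated and 3.63 and 5.15 treated (0.57 ± 0.37), and Orc4 at 13.7 and 33.6 against 28.7 and 40.8 (0.64 ± 0.48). Orc5 (XLOC_043456, chr5:22486281-22550429), whose unit also lists Gm15421, was lower, at 18.2 and 19.8 against 15.9 and 12.3 (-0.42 ± 0.29). The untreated samples also differed from each other. Sample 13 was below E13.17 in 43 of 49 genes and lowest of the 4 in 35, and it was also the shallowest library. Without sample 13 the median change was -0.20, and without E13.17 it was 0.43.

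Other genes of the pathway, from a list of 42 of which 41 were tested (40 for induction), were described by the same fits. In adaptation of WT cells 4 were called, all higher, beside 2.87% of all units called higher. They were Atad5, which unloads PCNA (0.94 ± 0.18), and Atad2, a chromatin ATPase (1.03 ± 0.22). Slbp, which binds histone mRNA (0.70 ± 0.16), and Rbl1, the pocket protein p107 (1.03 ± 0.24), were the others. In the other comparisons none was called. Relative to primary WT cells the median of the 41 was 0.42 higher in adapted null E13.15 and lower by 1.11 in E13.17 and by 0.94 in E14.2 on the log2 scale.

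Genes of mitosis were lower still in these lines. The median of 14 mitosis genes was -3.29 in adapted null E13.17 and -2.07 in E14.2 relative to primary WT, against -1.5 and -0.97 for the 49 genes and 0.39 in E13.15. Mki67, the proliferation marker, was at 22.3 FPKM in E13.15, 0.34 in E13.17 and 2.02 in E14.2, after 17.1, 12.2 and 15.3 in the primary populations of these embryos. Cdk1, Bub1 and Kif11, 3 of the 14 mitosis genes, were called in adaptation of WT cells, beside 2.87% of all units called higher. These were all higher (1.26 ± 0.19, 1.34 ± 0.24 and 1.32 ± 0.31), and no mitosis gene was called in the other comparisons. Sample 13 had a median of -0.84 for mitosis and -0.57 for replication genes.

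Of the cell cycle inhibitors, Cdkn1a, p21, was at 262, 245 and 225 FPKM in primary and 138, 90.1 and 106.5 in adapted null cells (-1.14 ± 0.21, limma adjusted p = 0.0377). It fell, and every adapted null line was below every primary null population. In WT cells Cdkn1a was at 249.3, 288 and 294 and 124, 18.1 and 127 FPKM (-2.04 ± 0.73, limma adjusted p = 0.117), lowest in adapted E13.8. Cdkn1b, p27, was at 8.6, 10.0 and 8.25 and 14.99, 35.8 and 7.5 (0.78 ± 0.51), highest in E13.17, after 6.93, 6.68 and 6.72 and 30.0, 22.8 and 9.83 in WT cells (1.36 ± 0.38, limma adjusted p = 0.0708), where the groups did not overlap. Cdkn2a, the locus of p16 and p19Arf, was at 82.2, 176 and 113 and 66.0, 0.0 and 171, listed at 0 in E13.17 alone of these 6. Its change was -2.40 ± 1.81 in null cells and -0.92 ± 0.97 in WT cells (limma adjusted p = 0.414 and 0.557). In the adapted WT lines the 3 inhibitors summed to 168.5, 314 and 177 FPKM, highest in E13.8, where Cdkn1a was lowest. Adapted WT lines therefore differed in Cdkn2a as well. The part of these genes in the levels of the replication genes was not tested.

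**Figure D5:**
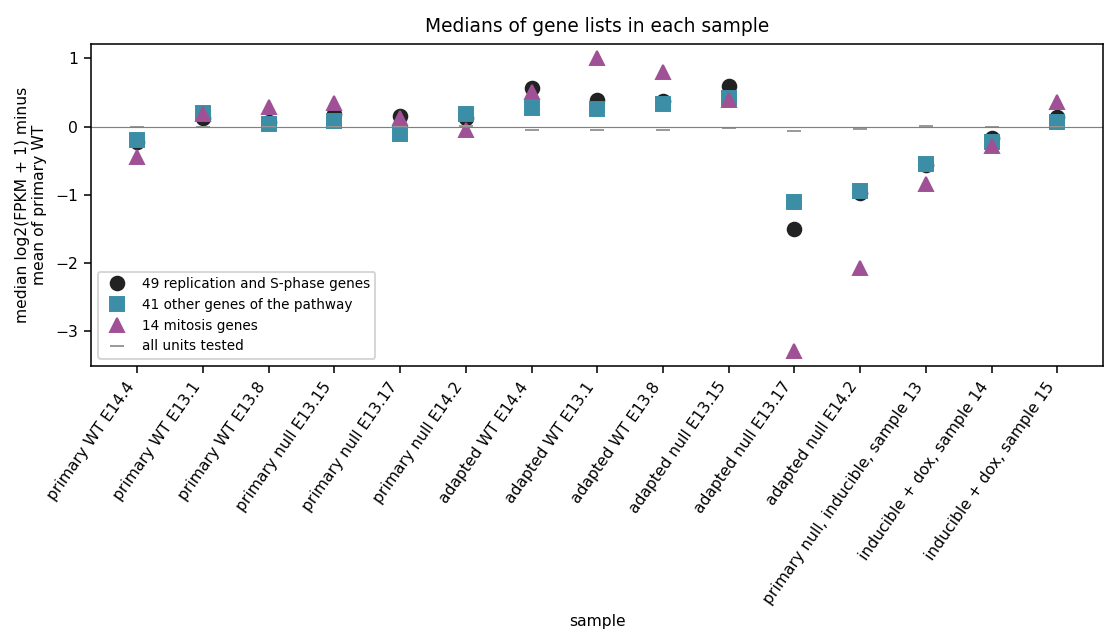
Median of log2(FPKM + 1) minus the mean of primary WT in each of 15 samples, for the 49 replication and S-phase genes (circles), 41 other genes of the pathway (squares), 14 mitosis genes (triangles) and all units tested (dashes, near 0). The mitosis median is lowest in adapted null E13.17 (-3.29), then E14.2 (-2.07) and sample 13 (-0.84).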

How the data were processed

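Poly(A) RNA of 15 samples was sequenced. Per the submitters' processing notes the authors used Cutadapt 1.8.3, HISAT2 2.0.5, Cufflinks and Cuffnorm with GRCm38, and deposited FPKM per transcription unit. Only these FPKM were used, not the deposited columns of the authors' Cuffdiff comparisons (fold changes and p-values). Where a symbol named several units (26 of 49 genes), the one with the highest mean stood for the gene, and each of the others held 1.08% to 34.7% of its level. For 45 genes other units share the locus, and the setting for strand is not given in the sources used here, so such levels are uncertain. The files give no counts, and depth is relative.

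Comparisons used limma 3.58.1 (R 4.3.3, a fit per comparison with a mean-variance trend) on log2(FPKM + 1), which understates changes of low genes, for units of mean FPKM at least 1, with Benjamini-Hochberg adjustment over all units, at 0.05. The fit was tested on simulated data with the spread of each group, where false calls could take a larger share of the calls than the nominal level, so adjusted p-values close to the threshold are less certain than they read. Genes given with the values of their samples were 7 chosen by name (an eighth, Cdt1, had no unit) and, per comparison, those called or, under 4 calls, the 4 with the smallest p. The members and lists were chosen with earlier results of these data known. Within a group each of the first 12 samples is from a separate embryo. Embryos were found by matching values to per-line tables of the study. For 1 sample, untreated primary E13.17, the source label carries another sample's number. Adapted and primary samples of an embryo are paired by origin, and the correlation of their deviations ranged from -0.021 to 0.21. Alternatives are given in the closing section. Python 3.11.15, pandas 2.3.3 and Matplotlib 3.10.9 made tables and plots.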

Additional observations from a re-analysis of the deposited data

Results flagged for a closer look

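Pold2, an accessory subunit of DNA polymerase delta, moved in opposite directions on adaptation in the genotypes when each adapted line was set against the primary population of its own embryo. The log2 change was -0.27 in E13.1, -0.57 in E13.8 and -0.084 in E14.4, all WT, and 0.011 in E13.15, 0.32 in E13.17 and 0.70 in E14.2, all CIZ1 null. The value in E13.15 is close to no change. The interaction of genotype and adaptation, which tests this difference, was 0.65 ± 0.35 for Pold2 (SE, limma adjusted p = 0.996) and did not pass. No group had enough samples for a search for single outlying samples.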

How the results depend on the processing

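Over all units, 1902 were called in WT adaptation, 988 with no filter and 499 with the replicate block (embryo). Of the 49 genes 4 were called there, 9 after quantile normalization, 1 in a single fit of 12 samples and 0 with the replicate block. In CIZ1 null adaptation 975 units were called, 322 with no filter, 1936 with array weights, 2907 in the single fit, 10 with the replicate block, 30 with the 2 primary null samples without the transgene and 449 with all 4 untreated primary null samples. The genes called there numbered 0, with 1 under array weights and 4 in the single fit. For loss of CIZ1 in primary cells 1 unit was called, 3 with a pseudocount of 0.1, 3 without the transgenic sample and 2 with all 4 untreated. For loss in adapted cells it was 1, with 0 under a pseudocount of 0.1, no filter, a mean FPKM of at least 5 or quantile normalization, and 8 in the single fit. The interaction had 0 units, and 2 with a pseudocount of 0.1. Induction had 2, and 0 with no filter. The replicate block changed no other call among the 49 genes. Leaving out 1 sample at a time gave 62 to 2972 units and 0 to 5 genes in WT adaptation, 25 to 2999 and 0 to 30 in null adaptation, 1 to 5 units for primary loss, 0 to 4 for adapted loss, 0 to 234 and 0 to 22 for the interaction, whose median change ranged from -1.741 to -0.8248, and 0 to 6 units for induction. E2f1 in WT adaptation, not called, turned to -0.2159 with array weights and ranged from -0.1371 to 0.431 when samples were left out. In null adaptation Pcna ranged from -0.3449 to 0.5133 and E2f1 from -0.7652 to 0.081. The cause was not tested. With 2 or 3 samples a group and adapted null lines that differ widely, a p above the threshold does not show equal levels.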
